A study of Mus musculus with 8 samples.

Results

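The genes described here encode the integrins, the cell surface receptors that hold cells to their matrix and to each other, and the laminins, the chains of the main adhesive protein of basement membranes. They were chosen by name: every non-control probe whose gene name in the scanner tables begins with Itga or Itgb, or is Lam followed by a, b or c and a digit, without the Itgb1bp and Itgb3bp names. This gave 85 of 41174 probes, for 39 of 27574 genes or unnamed transcripts, 28 with Itg names and 11 with Lam names. Of these, 26 genes were among the 14475 tested. One of the 39, listed as Itgb4bp, is now called Eif6 and encodes a translation factor, not an integrin. Lamb1, listed as Lamb1-1, is given by its current symbol.

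The cells were cultured lymph node stromal cells (LNSCs) of the BALB/c mouse strain, transfected by Lipofectamine with 400 pmol of a control siRNA or of an siRNA against Eif4g3, a scaffold protein of the cap-binding complex that starts translation. They were harvested 48 h later. The labels name no further allele, and do not give the age or number of the mice behind the culture. RNA came from the whole lysate (total RNA) or from the heavy polysome fractions of a sucrose gradient, which hold mRNAs carrying many ribosomes, and 7 plates were transfected with each siRNA. For the gradients the plates were pooled. Each of 8 arrays compared both siRNAs within 1 fraction, with 4 arrays per fraction, the Eif4g3 siRNA sample in Cy5 and the control siRNA sample in Cy3.

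An integrin is a pair of 1 alpha and 1 beta subunit, and the pair decides which ligand is bound: collagens and laminins, the RGD motif of fibronectin and vitronectin, or cell surface counter-receptors of leukocytes. A laminin is a trimer of an alpha, a beta and a gamma chain, deposited outside the cell and bound by integrins and dystroglycan. In lymph nodes, stromal cells surround collagen fibres that carry a laminin-containing basement membrane, along which lymphocytes move. Probe sequences were not used here, so none is shown.

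Unless stated otherwise, a value is the loess-normalised log2 ratio of the Eif4g3 siRNA sample to the control siRNA sample, negative where the transcript was lower after Eif4g3 knockdown. Means carry their SD over the 4 arrays of the fraction, and p-values are limma's, adjusted over all 14475 genes (Benjamini-Hochberg, threshold 0.05). Whether replicates stand for separate cultures is not stated in the labels, and the p-values then measure only the spread between these arrays, which may be technical. No array had the dyes swapped, and a probe's dye bias cannot be told apart from a change within either fraction. As 200 ng of RNA was labelled for each sample, a ratio is relative to the rest of the transcripts. In such bulk samples, fewer cells of a type and less RNA per cell cannot be told apart.

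The target itself was lower on every array, with means for the brightest Eif4g3 probe of -2.07 ± 0.29 in total RNA (adjusted p = 0.00197) and -2.46 ± 0.50 in heavy polysomes (adjusted p = 6.07e-04). Between 38.4% and 58% of non-control spots in Cy3 and between 43.8% and 54% in Cy5 were well above background, and 0 spots were saturated. Across genes, the arrays that correlated least with their own fraction were heavy polysome arrays 1 (mean 0.289) and 3 (0.318) and total RNA array 4 (0.327). Heavy polysome arrays 2 and 4 correlated with each other at 0.883. All 10 fibroblastic stroma markers examined, among them Pdgfrb, Pdpn and Col1a1, were well above background on all 8 arrays in both channels. The arrays came from 5 slides, each holding 1 fraction only.

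The cells expressed a broad set of matrix receptors and the chains of the common laminins. Each gene was represented by its brightest probe, giving 16 channel values over the 8 arrays, and 19 of the 39 genes were well above background in 16 of 16. They included the collagen or laminin receptor subunits Itga3, Itga6 and Itga11, the RGD receptor subunits Itga5 and Itgav, the alpha 9 subunit Itga9, the beta subunits Itgb1, Itgb3, Itgb4, Itgb5 and Itgb7, the laminin chains Lama2, Lama4, Lama5, Lamb1, Lamb2 and Lamc1, and Eif6. A further 7 passed the filter with fewer values: Itga1 and Itga7 with 15, Itgal with 14, Itga2b and Itgbl1 with 11, Itga8 with 9 and Itgb2 with 8.

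The other 13 genes, with 31 probes, were too dim to test. Itga2, Itga4, Itgam, Itgax, Itgb2l and Lama1 were well above background in 0 of 16 channel values. Itgae and Itgb8 reached it in 1, Lama3 in 2, Itga10 and Itgb6 in 3, and Lamb3 and Lamc3 in 5. Itga4, Itgam, Itgax and Itgae are alpha subunits best known from leukocytes, while Lama3 and Lamb3 are chains of the laminin of epithelial anchoring structures. A gene not well above background has only an upper bound on its level, and this does not show that the transcript is absent.

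**Figure D1:**
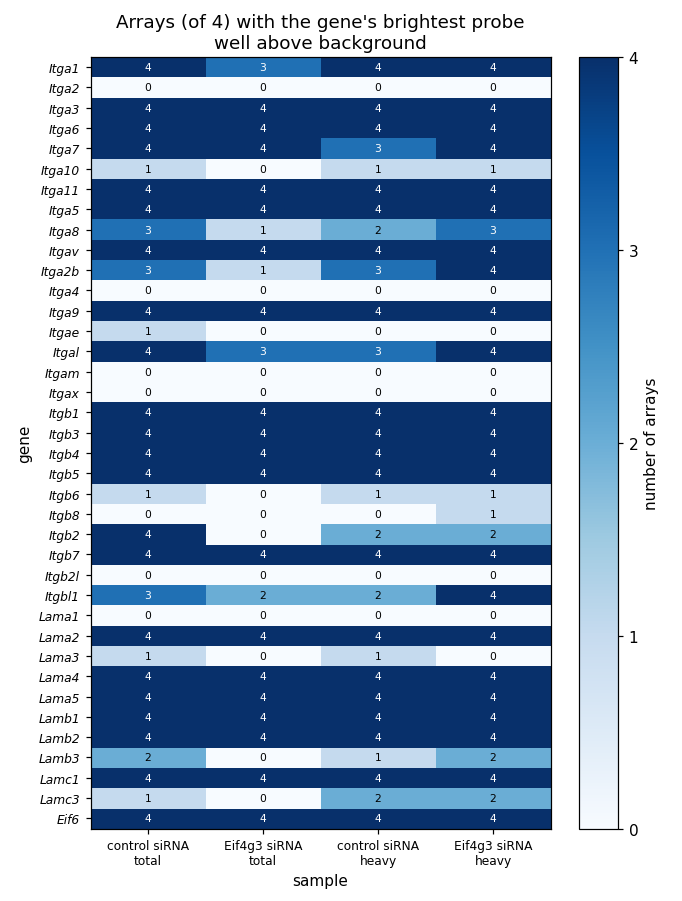
Number of arrays, of 4, on which the brightest probe of each of 38 genes was well above background, by siRNA and RNA fraction. 18 genes reached all 16 channel values and 6 reached 0, and Itgb2 reached 4 of 4 in control siRNA total RNA and 0 of 4 in Eif4g3 siRNA total RNA.

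With Eif4g3 knockdown, 2 of these genes were called in each fraction, a count not set apart from that of all genes. In total RNA, Itga9 and Itgb3 fell and 0 rose, 2 of the 26 tested genes, beside 4.37% of all genes tested (1.67% higher and 2.7% lower). In heavy polysome RNA, Itga9 and Lama2 fell and 0 rose, again 2 of 26, beside 8.91% of all genes (4.88% higher and 4.03% lower). At an unadjusted p under 0.05, 6 of the 26 differed in each fraction, beside 22.1% of all genes for total RNA and 25.4% for heavy polysomes. All 4 total RNA arrays were below 0 for 8 of the 26 genes and above 0 for 3, beside 21.5% and 13.3% of all genes. For heavy polysome RNA this held for 3 and 2 genes, beside 14.7% and 17.2%. The median of the 26 ratios was -0.12 for total and -0.02 for heavy polysome RNA, against -0.04 and 0.02 over all genes. For the 17 tested integrin subunits the medians were -0.14 and 0.01, and for the 7 tested laminin chains -0.11 and -0.06. The filter on dim probes can pass a gene through either siRNA, so these medians describe the 26 genes that passed and not all 39.

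**Figure D2:**
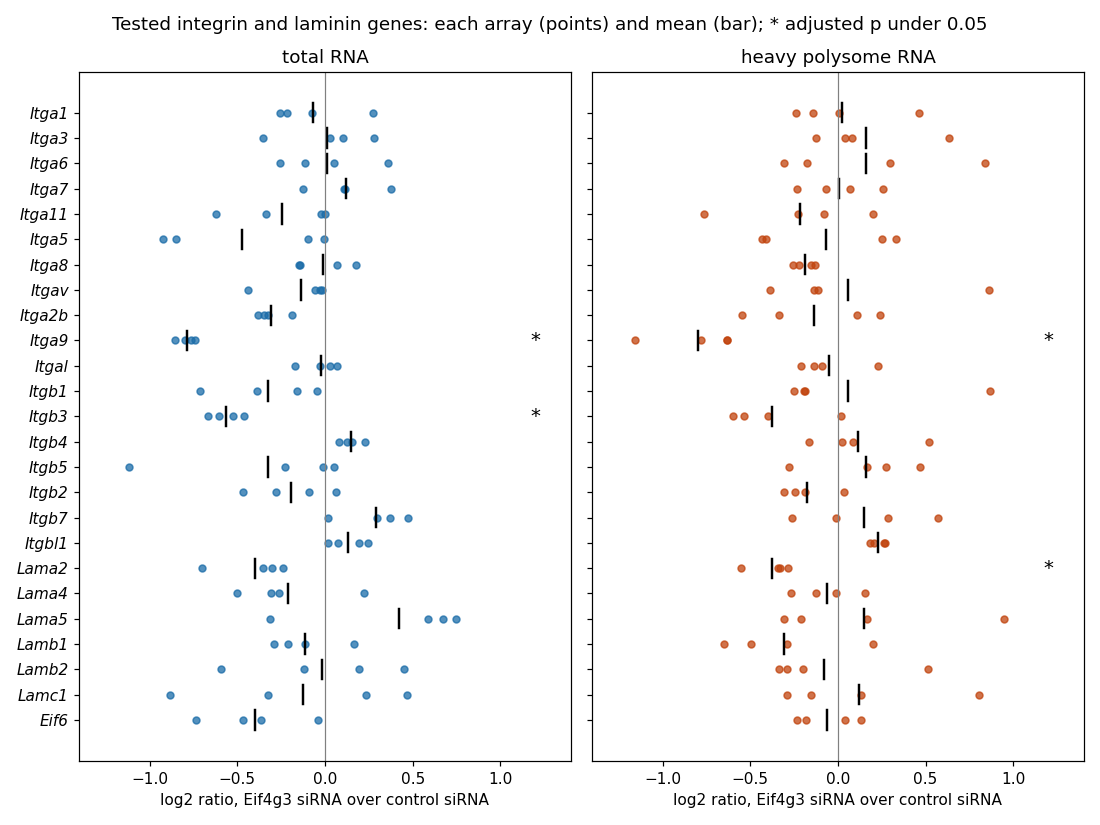
Log2 ratio, Eif4g3 siRNA over control siRNA, for 25 tested genes on each array (points) with the mean (bar), in 1 panel per RNA fraction, and a star where the adjusted p was under 0.05. The 4 total RNA values of Itga9 sit between -0.86 and -0.74, apart from most other genes, whose points lie on both sides of 0.

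Itga9, on chr9:118747480-118747539 (mm8, the place of its probe), had the largest decrease among the tested members in both fractions. It encodes the alpha 9 subunit, which pairs with beta 1 and binds tenascin-C, osteopontin and VCAM-1. In total RNA its ratios were -0.86, -0.80, -0.76 and -0.74 on arrays 1 to 4, a mean of -0.79 ± 0.05, or 1.73-fold lower (adjusted p = 0.00776). In heavy polysome RNA they were -0.78, -0.63, -1.16 and -0.63, a mean of -0.80 ± 0.25, or 1.74-fold lower (adjusted p = 0.00368). All 8 arrays were below 0, the total RNA values lay close together, and heavy polysome array 3 gave the lowest value. Without heavy polysome array 3 the mean there was -0.68 (adjusted p = 0.00842). Without total RNA array 3 the total RNA mean was -0.80 and the call was lost at an adjusted p of 0.0501. Centring each array on its median in place of loess, which left 0 calls among all genes, also ended both calls while the means stayed negative, at -1.69 (adjusted p = 0.0926) for total RNA, where the median of all genes was -0.78, and -0.81 (adjusted p = 1) for heavy polysomes.

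One further probe, listed under the RIKEN name 6720458D17Rik at chr9:118749345-118749404 (mm8), belongs to Itga9 by its RefSeq record but not by the naming rule, and was looked up after the values of Itga9 were seen. Its ratios in total RNA were -0.36, -0.17, -0.11 and -0.23, a mean of -0.22 ± 0.11 (adjusted p = 0.223 when all 21398 tested probes were fitted on their own). In heavy polysome RNA they were -0.41, -0.23, -0.11 and 0.10, a mean of -0.16 ± 0.21 (adjusted p = 0.331 in the same fit). It was below 0 on 7 of 8 arrays, nearer to 0 than the main probe on every array, and did not pass the test.

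The alpha 9 ligands named above were on the ligand list described further on. Of those named, Spp1, which encodes osteopontin, fell in both fractions, with means of -1.35 ± 0.55 (adjusted p = 0.0341) and -1.48 ± 0.83 (adjusted p = 0.015). Vcam1 stood at -0.53 ± 0.31 (adjusted p = 0.102) and -0.51 ± 0.44 (adjusted p = 0.0938), and Tnc, which encodes tenascin-C, at 0.02 and -0.04, neither passing the test. Itgb1, the partner subunit, did not pass it either, as described next. The brightest probe of Itga4, the subunit most like Itga9, was not well above background on any array.

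Of the beta subunits that carry most receptors of stromal cells, Itgb3 was the one that fell. It pairs with alpha v as a vitronectin and osteopontin receptor, and was at -0.52, -0.67, -0.61 and -0.46 in total RNA, a mean of -0.56 ± 0.09, or 1.48-fold lower (adjusted p = 0.0254). In heavy polysome RNA it was at 0.02, -0.60, -0.54 and -0.40, a mean of -0.38 ± 0.28 (adjusted p = 0.0618), with array 1 apart from the other arrays and the call made when that array was left out. The total RNA call rests on this probe, at chr11:104486448-104486507 (mm8). A second Itgb3 probe at chr11:104483266-104483336 (mm8) stood at 0.10 ± 0.30 in total RNA (adjusted p = 0.686 when all probes were fitted on their own) and -0.20 ± 0.24 in heavy polysome RNA. The call was also lost when any total RNA array was left out (adjusted p from 0.0609 to 0.113), without the fourth heavy polysome array (0.0541), and when both probes were averaged (mean -0.23, adjusted p = 0.113).

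Itgb1, the partner of most alpha subunits here, was at -0.39, -0.71, -0.16 and -0.05 in total RNA and at 0.87, -0.20, -0.25 and -0.19 in heavy polysome RNA. Its means of -0.33 ± 0.29 and 0.06 ± 0.54 did not pass the test (adjusted p = 0.341 and 0.876), and heavy polysome array 1 stood far above the other arrays. Itgb5, whose only partner is alpha v, was at -0.01, -0.23, 0.05 and -1.12 in total RNA (mean -0.33 ± 0.54, adjusted p = 0.348) and at 0.47, 0.17, -0.28 and 0.27 in heavy polysome RNA (mean 0.16 ± 0.32, adjusted p = 0.648). Its total RNA mean came mostly from array 4. Itgb8, another partner of alpha v, was too dim to test.

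Among the alpha subunits that bind the RGD motif, Itga5, the alpha subunit of the classical fibronectin receptor, split by array. It was at -0.93, -0.85, -0.10 and -0.01 in total RNA, a mean of -0.47 ± 0.49 (adjusted p = 0.189), and at 0.25, -0.43, 0.33 and -0.41 in heavy polysome RNA, a mean of -0.07 ± 0.41 (adjusted p = 0.867). Total RNA arrays 1 and 2 were low and arrays 3 and 4 near 0, so neither mean exceeded the spread. Itgav, the alpha v subunit, was at -0.02, -0.44, -0.03 and -0.06 in total RNA (mean -0.14 ± 0.20, adjusted p = 0.715) and at 0.86, -0.14, -0.39 and -0.12 in heavy polysome RNA (mean 0.06 ± 0.55, adjusted p = 0.877). Fn1, the fibronectin ligand of these receptors, stood at -0.60 ± 0.37 in total RNA (adjusted p = 0.143). In heavy polysome RNA Fn1 was at -0.11 ± 0.64 (adjusted p = 0.798), and it passed the test in neither fraction. Itga2b, the platelet fibrinogen receptor subunit, and Itga8, a nephronectin receptor subunit, had total RNA means of -0.31 and -0.01 and heavy polysome means of -0.13 and -0.19. With processed signals and with the deposited matrix, the Itga2b mean in total RNA was -1.67 (adjusted p = 0.0358), and it was called. In total RNA, however, Itga2b was well above background on 1 of 4 arrays in Eif4g3 siRNA and 3 of 4 in control siRNA cells. This larger ratio therefore rests on signals near background.

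The tested alpha subunits that bind collagens or laminins, Itga1, Itga3, Itga6, Itga7 and Itga11, ranged from -0.24 (Itga11) to 0.12 (Itga7) in total RNA and from -0.22 (Itga11) to 0.16 in heavy polysome RNA. With their brightest probes, none of the 5 passed the test in either fraction, also at an unadjusted p under 0.05. A second Itga7 probe stood at -0.26 ± 0.15 in heavy polysome RNA when all probes were fitted on their own. Its unadjusted limma p was 0.0106 and its adjusted p 0.0883, so it was not called. Itgb4, which pairs with alpha 6 in hemidesmosomes, had means of 0.15 and 0.12. The best known laminin receptors, alpha 3 beta 1, alpha 6 beta 1 and alpha 6 beta 4, thus had no subunit called in either fraction.

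The leukocyte-type subunits that passed the filter were Itgal, Itgb2 and Itgb7, with total RNA means of -0.03, -0.19 and 0.29 and heavy polysome means of -0.05, -0.17 and 0.15, none of them called. Itgb2 was well above background on 4 of 4 total RNA arrays in control siRNA cells and on 0 of 4 in Eif4g3 siRNA cells, and it passed the filter through the control siRNA channel of total RNA alone, a choice that favours a lower ratio there. Its total RNA ratios were -0.28, -0.09, 0.07 and -0.47 (adjusted p = 0.32), with an interval of -0.43 to 0.04 that includes 0. With the processed signals of Feature Extraction, and with the deposited matrix, Itgb2 was called lower in both fractions, at -0.61 (adjusted p = 0.0386) and -0.81 (adjusted p = 0.011). In heavy polysome RNA, Itgb2 was well above background on 2 of 4 arrays in each channel, so these ratios too rest on signals near background. Ptprc, the pan-leukocyte antigen CD45, and Cd79a, Cd79b, Cd8a and Ms4a1 were not well above background on any array, while Coro1a was above it on all arrays. The log2 of the summed signal of the 10 lymphocyte and pan-leukocyte markers was 9.46 to 9.62 in control siRNA and 9.43 to 9.61 in Eif4g3 siRNA total RNA.

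Itgbl1, a secreted protein with integrin-like repeats, was the one gene above 0 on all 8 arrays. It was at 0.25, 0.02, 0.07 and 0.19 in total RNA (mean 0.13 ± 0.11, adjusted p = 0.361) and at 0.26, 0.20, 0.27 and 0.18 in heavy polysome RNA (mean 0.23 ± 0.04, adjusted p = 0.105). The 8 values were small and positive, and neither mean passed the test. With processed signals and with the deposited matrix, the heavy polysome mean of Itgbl1 was 1.03 (adjusted p = 0.0279), and it was called. In control siRNA heavy polysome RNA, however, Itgbl1 was well above background on 2 of 4 arrays, so this larger ratio rests in part on signals near background. Over all genes with a value on every array, 6.15% were above 0 on all 8 arrays and 7.85% below 0 on all 8, the latter including Itga9 and Lama2.

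Among the laminin alpha chains, Lama2 was lower. Its laminin is best known from muscle and nerve and binds dystroglycan and alpha 7 beta 1 integrin. It was at -0.34, -0.56, -0.33 and -0.29 in heavy polysome RNA, a mean of -0.38 ± 0.12, or 1.30-fold lower (adjusted p = 0.0441). In total RNA it was at -0.70, -0.35, -0.30 and -0.24, a mean of -0.40 ± 0.21 (adjusted p = 0.0526). All 8 values were below 0 and the 2 fractions had near-equal means, with 1 just inside and the other just outside the threshold. The heavy polysome call was lost when any heavy polysome array was left out (adjusted p from 0.0706 to 0.17). It was also lost without total RNA array 2 (0.0764) or 3 (0.0734), and in 8 other alternatives. The direction held in all 21, though some of these, such as leaving out a total RNA array, cannot move this mean. The probe lies at chr10:26673839-26673898 (mm8), and the other tested Lama2 probe had means of -0.23 ± 0.21 and -0.23 ± 0.25.

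Lama4 and Lama5, the alpha chains of the laminins of blood vessel walls and of many tissue basement membranes, were not called. Lama4 was at -0.50, -0.26, 0.22 and -0.31 in total RNA (mean -0.21 ± 0.31, adjusted p = 0.346) and at -0.27, -0.01, -0.12 and 0.15 in heavy polysome RNA (mean -0.06 ± 0.18, adjusted p = 0.799). Lama5 was at -0.32, 0.67, 0.59 and 0.75 in total RNA, a mean of 0.42 ± 0.50 (adjusted p = 0.302), and at -0.21, -0.31, 0.94 and 0.17 in heavy polysome RNA, a mean of 0.15 ± 0.57 (adjusted p = 0.724). Lama5 was high on 3 total RNA arrays and low on array 1, so that its mean, the largest positive one in total RNA, was smaller than its SD.

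The beta 1, beta 2 and gamma 1 chains, which form trimers with these alpha chains, were not called either. Lamb1 was at -0.21, -0.29, -0.11 and 0.16 in total RNA (mean -0.11 ± 0.20, adjusted p = 0.693) and at -0.65, -0.49, 0.20 and -0.29 in heavy polysome RNA (mean -0.31 ± 0.37, adjusted p = 0.196). Lamb2 was at -0.59, 0.19, -0.12 and 0.45 in total RNA (mean -0.02 ± 0.45, adjusted p = 0.969) and at 0.52, -0.29, -0.33 and -0.20 in heavy polysome RNA (mean -0.08 ± 0.40, adjusted p = 0.831). Lamc1 was at -0.88, -0.33, 0.24 and 0.47 in total RNA (mean -0.13 ± 0.60, adjusted p = 0.802) and at 0.13, -0.29, 0.81 and -0.15 in heavy polysome RNA (mean 0.12 ± 0.49, adjusted p = 0.782). For all 3 chains the arrays of a fraction fell on both sides of 0. Without heavy polysome array 3, the Lamb1 mean there was -0.48 and was called.

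Eif6, which keeps the large ribosomal subunit from joining the small one and was listed under an integrin-binding name, gave different answers by probe. The brightest probe was at -0.74, -0.36, -0.47 and -0.04 in total RNA (mean -0.40 ± 0.29, adjusted p = 0.0867) and at 0.04, -0.23, 0.13 and -0.18 in heavy polysome RNA (mean -0.06 ± 0.17, adjusted p = 0.792). With every probe fitted on its own, a second probe was lower in total RNA, at -0.63 (adjusted p = 0.0223), and the third was higher in both fractions, at 0.84 (adjusted p = 0.0224) and 0.85 (adjusted p = 0.0121). No direction can be given for this gene.

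Several tested probes were present for 13 of the 26 genes, 29 probes in all, and the other 13 genes had 1 tested probe. The probes of a gene differed in the sign of their mean for 9 of the 13 genes in total RNA and for 6 in heavy polysomes, in most cases with both means near 0. Their means lay more than 0.5 apart in total RNA for Eif6 and Itgb3, and in heavy polysome RNA Eif6 was again among those with probes that far apart. The 2 tested probes of Itgb1 gave the same total RNA mean, -0.33. Which transcript ends each probe measures was not analysed here.

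**Figure D3:**
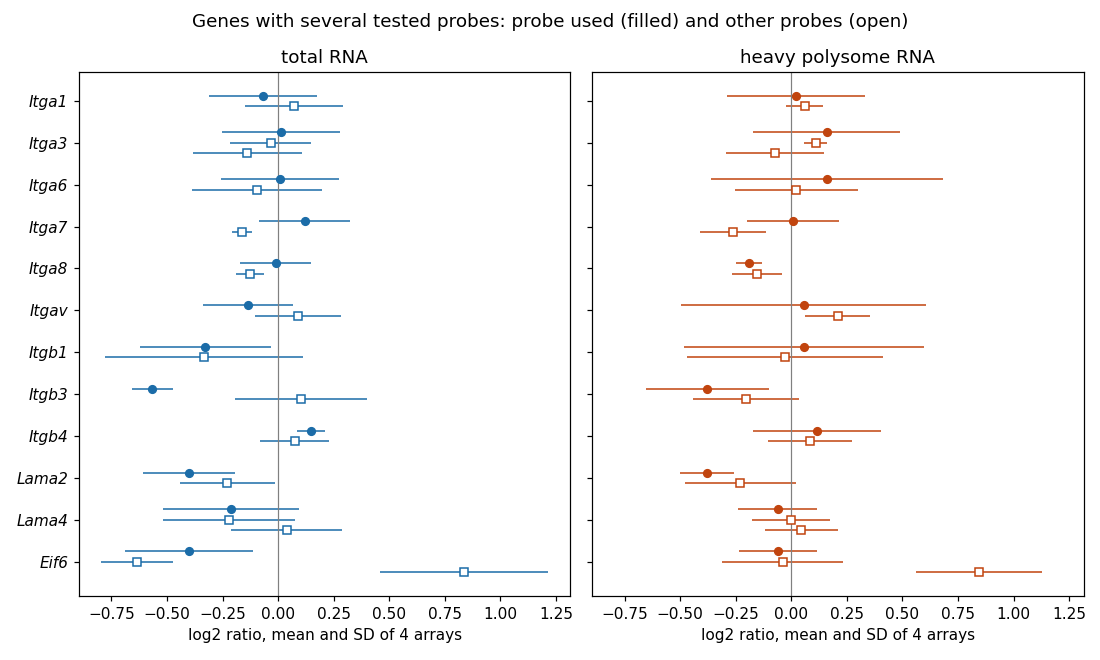
Mean and SD (bars) over 4 arrays of the log2 ratio for each tested probe of 12 genes with several, in 1 panel per RNA fraction, filled for the brightest probe, which represents the gene, and open for the others. Itgb3 and Eif6 are the genes whose probes stand apart in total RNA, the third Eif6 probe being at 0.84.

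The heavy polysome ratio minus the total RNA ratio asks whether a transcript changed in heavy polysomes beyond its change in abundance, and a dye bias equal on all arrays cancels in it. None of the 26 genes was called by limma, and none had an unadjusted p under 0.05. Among all genes 0 were called (0%), with 755 at an unadjusted p under 0.05, and 0 were called under any of 21 alternatives. The smallest p was that of Eif6, 0.071 (adjusted p = 0.847). The differences ran from -0.28 (Lama5) to 0.48 (Itgb5), with a median of 0.09 against 0.06 over all genes, and 17 of 26 were above 0.

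A call of 0 does not show equal change, and the 95% intervals of the difference were wide. The median distance from the estimate to either bound was 0.42, and for 24 of the 26 genes the whole interval lay within a 2-fold change in either direction. For Itga9 the difference was -0.01 (-0.33 to 0.31), for Lama2 0.02 (-0.29 to 0.33) and for Itgb3 0.19 (-0.16 to 0.53). Itga5 (0.41, from -0.20 to 1.01) and Itgb5 (0.48, from -0.12 to 1.08) had intervals that reached past 2-fold. For 14 genes the interval lay within a 1.5-fold change in either direction, and for the other 12 it did not exclude a change of that size.

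**Figure D4:**
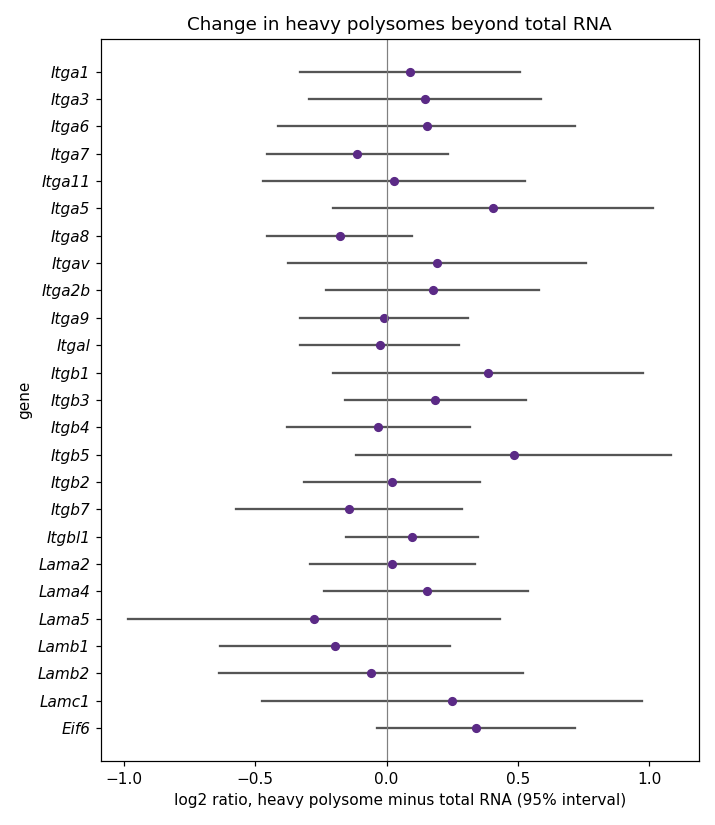
Log2 ratio in heavy polysome RNA minus that in total RNA for 25 tested genes, with its 95% interval (bars). Every interval includes 0; those of Itga9 and Lama2 are centred near 0 and those of Itga5 and Itgb5 reach past 1.

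The distribution of the transcripts between heavy polysomes and total RNA was compared within each siRNA, from the Cy3 values for control siRNA and the Cy5 values for Eif4g3 siRNA. In control siRNA cells none of the 26 genes was called, beside 2.19% of all genes, 0.0138% higher and 2.18% lower in heavy polysomes. In Eif4g3 siRNA cells again none was called, beside 0.152% of all genes. At an unadjusted p under 0.05 there was 1 in control siRNA cells, Eif6, and there were 2 in Eif4g3 siRNA cells, Itgb1 and Eif6, beside 12.5% of all genes in each. The control values ran from -0.61 (Itga11) to 0.51 (Lama2), with a median of 0.08 against -0.02 over all genes. In Eif4g3 siRNA cells they ran from -0.58 (Itga11) to 0.80 (Eif6), with a median of 0.20 against 0.02. Itgb1 stood at 0.40 (-0.24 to 1.04) in control siRNA and at 0.79 (0.28 to 1.29, adjusted p = 0.211) in Eif4g3 siRNA cells. The difference between the siRNAs for Itgb1, which is that of its ratios between fractions, was 0.39 (-0.20 to 0.97) and did not pass the test. Each slide held 1 fraction, so slide and fraction cannot be told apart in these values.

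**Figure D5:**
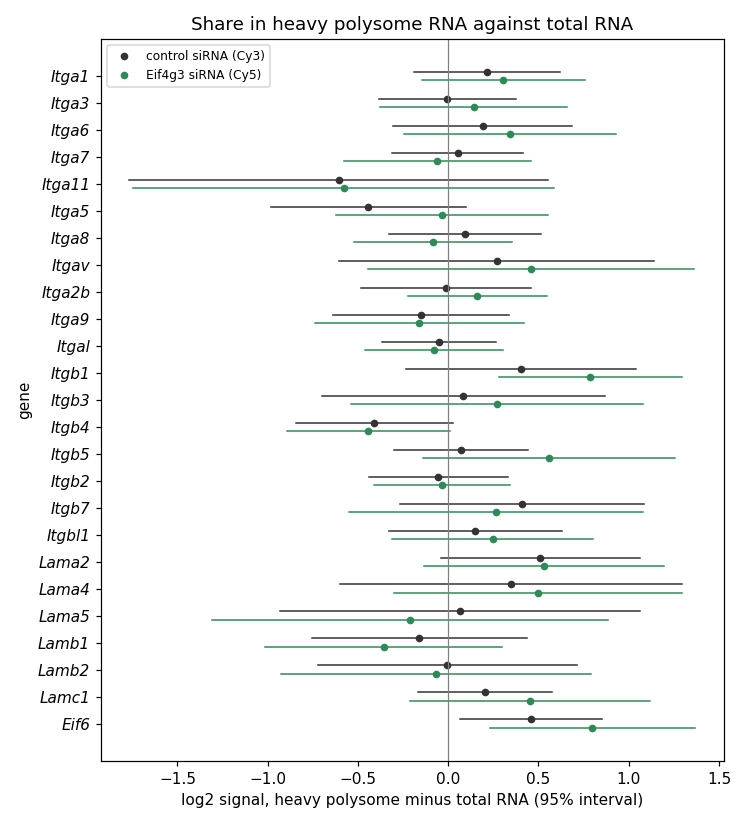
Log2 signal in heavy polysome RNA minus that in total RNA for 25 tested genes, in control siRNA cells (Cy3, black) and Eif4g3 siRNA cells (Cy5, green), with 95% intervals (bars). Most intervals include 0 in both; that of Itgb1 lies above 0 in Eif4g3 siRNA cells, from 0.28 to 1.29, and includes 0 in control siRNA cells, and that of Eif6 lies above 0 in both.

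Of 33 adaptors that link integrins to actin or regulate their activation, 31 were tested. In total RNA 2 fell, Parvb, a parvin that binds integrin-linked kinase, at -0.87 ± 0.49 (adjusted p = 0.0243), and the tensin Tns3 at -0.49 ± 0.23 (adjusted p = 0.0285), and 0 rose. In heavy polysome RNA 1 rose, Itgb1bp1, whose product binds the beta 1 tail, at 0.57 ± 0.46 (adjusted p = 0.049), and 0 fell. That mean leaned on heavy polysome array 1, at 1.25, while the other arrays lay between 0.29 and 0.40. The list medians were -0.10 and 0.02, and the calls stand beside 4.37% and 8.91% over all genes.

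Of 33 other basement membrane components and integrin ligands, 26 were tested, with medians of -0.04 and -0.02. In total RNA 1 rose, Fbn1, which encodes the microfibril protein fibrillin 1, at 1.77 ± 0.31 (adjusted p = 0.00517), and 2 fell, Spp1 and Col18a1, a basement membrane collagen, at -0.59 ± 0.12 (adjusted p = 0.0374). In heavy polysome RNA 2 rose, Fbn1 at 1.68 ± 0.54 (adjusted p = 0.00284) and the dystroglycan partner Sgcb at 0.71 ± 0.26 (adjusted p = 0.0137). This made 3 of 26 called in total RNA, beside 4.37% of all genes, and 5 of 26 in heavy polysomes, beside 8.91%. The adaptor list and this list were chosen with earlier results of these data known, so these shares are no test of either list. The 3 that fell in heavy polysome RNA were Spp1, Col18a1 at -0.95 ± 0.36 (adjusted p = 0.00448) and Nid1, the nidogen that links the laminin gamma 1 chain to collagen IV, at -0.71 ± 0.34 (adjusted p = 0.017). Fbn1 was above 1 on all 8 arrays, a larger change than that of any integrin or laminin gene.

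Markers of other cell types were read in the same samples. Of 10 macrophage markers 5 were tested and Csf1r fell in total RNA, at -0.57 ± 0.30 (adjusted p = 0.0447). In heavy polysome RNA it was at -0.36 ± 0.25 and was not called (adjusted p = 0.129). The other tested ones, Cd68, Lyz2, Cd14 and C1qb, were called in neither fraction. The markers Adgre1, C1qa, C1qc, Fcgr1 and Tyrobp were not well above background on any array. The log2 of the summed macrophage signal was 10.54 to 11.12 in control siRNA and 10.32 to 11.08 in Eif4g3 siRNA total RNA, and 10.73 to 11.27 and 10.18 to 11.23 in heavy polysome RNA. The macrophage list median was -0.08, -0.09, -0.64 and -0.24 on heavy polysome arrays 1 to 4, where Itga9 was lowest on array 3. On total RNA arrays 1 to 4 the list median was -0.06, -0.02, -0.29 and -0.33, where Itga9 was lowest on array 1. Any link between this list and the Itga9 values was not tested. Of the stroma markers, Col1a2 fell in total RNA, and Pdgfra, Pdgfrb, Col1a1 and Col1a2 fell and Cxcl12 rose in heavy polysome RNA; the part of these shifts in the integrin and laminin values was not tested. Of 10 endothelial markers, Vwf and Kdr were tested and not called, Vwf being well above background on all arrays, while Pecam1, Lyve1 and Tie1 were above it on none. Of 5 platelet markers, Gp1bb and Ppbp were tested and not called, Gp1bb at -0.47 ± 0.21 in total RNA (adjusted p = 0.097), while Gp1ba, Gp9 and Pf4 were above background on no array. Of 8 epithelial markers 5 were tested and Krt19 fell in both fractions (-0.80 and -0.69), while Cdh1 was above background on no array.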

How the data were processed

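RNA of cultured lymph node stromal cells was measured on 8 Agilent 2-colour arrays, 4 for each RNA fraction. The scanner files deposited by the authors hold spot and background signals as intensity, made with Feature Extraction 10.7.3.1 (7 arrays) or 10.5.1.1 (total RNA array 2), per the file headers. They also give log10 of the processed Cy5 over Cy3 signal, per the file headers. The authors' deposited matrix holds log2 values, at least 99.8% of which lay within 0.01 of the log2 ratio of Cy5 to Cy3 processed signals. It was not centred, its column medians being -0.21 to 0.31.

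Mean signals minus median local background were corrected by normexp (offset 50) and normalised by loess (span 0.3), with control and outlier spots (131 to 241 per array) at weight 0. Spots of a probe were averaged, and a gene was read from the probe brightest over the 8 arrays. Testing required this probe to exceed background well, in either channel, on 3 or more of the 4 arrays of some fraction. limma fitted 1 coefficient per fraction over all 8 arrays, two-sided. The channel values were normalised by Aquantile. Symbols came from RefSeq gene records, which matched 33026 probes (80.2%), and coordinates are mm8, per the file headers. Software was R 4.3.3, limma 3.58.1, version 1.17.8 of data.table, Python 3.11.15 and matplotlib 3.10.9, and the fits were tested on simulated data. The number of arrays limits the precision.

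Values on each array are given for members called in any comparison, the 6 with the largest mean in each fraction, and the named fibronectin, alpha v and laminin subunits. Results of 1 gene are not reported here, though it enters the counts and medians. The members and gene lists were chosen with earlier results of these data known. The replicate numbers were not used to pair the arrays in the main fits. Deviations of same-numbered arrays correlated at -0.02, 0.17, -0.11 and -0.30, and those of differently numbered arrays at -0.51 to 0.47. These values cannot show whether same-numbered arrays came from the same culture.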

Additional observations from a re-analysis of the deposited data

Results flagged for a closer look

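Among 52 sets of 4 arrays, 1 for each tested gene and fraction, 4 had an array whose gap to the nearest of the others was over 0.829 of the whole range, and chance gives about 1 in 20. On total RNA array 2, Itgav was at -0.44, while the other arrays lay between -0.06 and -0.02. On total RNA array 1, Lama5 was at -0.32, against 0.59 to 0.75. On heavy polysome array 1, Itgb1 was at 0.87, against -0.25 to -0.19, and Lamb2 at 0.51, against -0.33 to -0.20. None of these 4 genes was called in that fraction.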

How the results depend on the processing

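The total RNA count of 2 called members became 5 with Feature Extraction processed signals and with the deposited matrix, 4 with scale normalisation between arrays and with slide as a random block, 1 with the mean of a gene's probes, 0 with median centring in place of loess, and 7 without the 3 arrays of lowest mean correlation, an alternative chosen after seeing the data. Leaving out 1 array at a time gave 0 to 3. The heavy polysome count of 2 became 1 with arrays of the fraction alone, 1 without background subtraction, 1 with heavy polysome arrays 2 and 4 as 1 replicate, 0 with median centring, 5 with slide as a block and 4 without those 3 arrays; leaving out 1 array gave 1 to 2. The slide block used a correlation of -0.27. Counts stayed at 0 for the difference (21 alternatives) and for each siRNA's distribution (15 each), with 0 also in the fit with the replicate block. Itga9, Itgb3 and Lama2 kept their direction in all 21 alternatives, but many of these cannot move the mean. Leaving out an array of the other fraction, for example, left the Itga9 total RNA mean at -0.79. Where probes were fitted on their own, each gene was read from its probe of lowest adjusted p. The second Itgb3 probe, at 0.10 in total RNA, thus could not count there. Itga9 was called in 20 in heavy polysome RNA and 19 in total RNA, Itgb3 in 14 in total RNA and Lama2 in 7 in heavy polysome RNA. Under median centring the median of all genes in total RNA moved to -0.78, where the members' median was -0.93. Among all genes, the total RNA count of 633 became 1451 with processed signals, 1474 with the slide block and 298 with heavy polysome arrays 2 and 4 as 1 replicate; the heavy polysome count of 1290 became 2048, 2591 and 434. Calls gained included Lama2 and Eif6 in total RNA (6 alternatives each) and Itgb3 and Itgbl1 in heavy polysome RNA (4 each). The causes were not tested.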

Other observations

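On arrays 1 to 4 of total RNA the median ratio of the 26 tested genes was -0.27, -0.22, -0.03 and -0.003, and for heavy polysome RNA it was 0.03, -0.23, 0.20 and -0.17, while loess held the median of all genes between -0.05 and 0.05. On total RNA array 1, 21 of the 26 genes were below 0, and on heavy polysome array 3, 9 were.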
